A study of Mus musculus with 4 samples.

Results

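Transcripts of 8 genes of metallothionein and zinc transport biology were measured in the cerebellum of Dicer mutant mice and their control littermates. The genes were Mt1, Mt2, Mt3, Mtf1, Slc30a1, Slc30a10, Slc39a12 and Slc39a14, out of 28632 gene names on the array. They were covered by 12 probes in 21 spots per array, and every spot whose array name was 1 of the 8 symbols was used. The genes had been selected on their measured mutant over control ratios in these same arrays as well as on their function, so their ratios are a description and not evidence about zinc genes in general.

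Dicer mutants carried mGfap-Cre with both Dicer alleles floxed (Dicer flox/flox), and controls carried the same mGfap-Cre with 1 floxed and 1 wild-type allele (Dicer +/flox). Cre was driven by a mouse Gfap promoter (line mGfap-cre 73.12), which acts in astroglia, on a mixed strain background, and both genotypes were taken at postnatal day 30. Total RNA of whole cerebellum from 4 independent littermate pairs was hybridised to 4 2-colour Agilent arrays, 1 pair per array, with the mutant in Cy5 for pairs 1 and 3 and in Cy3 for pairs 2 and 4. Dicer is the enzyme that cuts microRNA precursors into mature microRNAs. Between 26398 and 28907 of 41174 probes were well above background in mutant channels, against 26291 to 27718 in control channels, and precision is set by there being 4 arrays. The brighter Dicer1 probe read 0.04 ± 0.22 and the other -0.06 ± 0.18 (log2 mutant over control, SD, n = 4) in this whole tissue. Where these probes lie with respect to the floxed segment was not established, so they do not check the genotype.

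Metallothioneins are small cysteine-rich proteins that bind zinc and copper and buffer free zinc in the cell. In brain, Mt1 and Mt2 are made mainly by astroglia, and Mt3 is a form found mostly in the nervous system. The transcription factor MTF1 senses free zinc, binds metal response elements in promoters, and switches on Mt1, Mt2 and the zinc exporter gene Slc30a1. Members of the SLC30 family (ZnT) move zinc out of the cytosol and members of the SLC39 family (ZIP) move it in, and some of them carry manganese or iron.

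The probe that reported Mt1 is shown because its target is the cysteine-rich coding sequence itself. It lies at chr8:96704011-96704070 (plus strand, mm9), and capitals mark the 6 triplets TGC or TGT, which code for cysteine, among the 19 whole triplets of the frame that starts at its base 3.
Mt1 probe, A_51_P294979: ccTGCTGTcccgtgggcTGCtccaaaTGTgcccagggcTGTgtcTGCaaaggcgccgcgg

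The promoters of the 3 metallothioneins among the 8 genes are shown because these neighbouring genes had ratios of the same sign. Each window is the 250 bases before the listed start site, from RefSeq on build GRCm38.p6, plus strand, and 7 of the 8 genes matched an entry of the promoter table. Capitals mark the metal response element core, searched as TGCACNC and TGCGCNC on both strands.
Mt1, chr8:94178839-94179088: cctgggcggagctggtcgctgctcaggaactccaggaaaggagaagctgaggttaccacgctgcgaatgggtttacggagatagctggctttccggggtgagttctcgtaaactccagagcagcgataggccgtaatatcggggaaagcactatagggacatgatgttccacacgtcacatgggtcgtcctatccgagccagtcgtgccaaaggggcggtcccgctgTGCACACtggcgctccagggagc
Mt2, chr8:94172368-94172617: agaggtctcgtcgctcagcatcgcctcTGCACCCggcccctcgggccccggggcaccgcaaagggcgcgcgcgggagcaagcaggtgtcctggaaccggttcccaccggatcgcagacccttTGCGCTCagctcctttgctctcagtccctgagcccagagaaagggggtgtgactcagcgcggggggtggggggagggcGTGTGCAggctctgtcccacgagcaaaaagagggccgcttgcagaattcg
Mt3, chr8:94152357-94152606: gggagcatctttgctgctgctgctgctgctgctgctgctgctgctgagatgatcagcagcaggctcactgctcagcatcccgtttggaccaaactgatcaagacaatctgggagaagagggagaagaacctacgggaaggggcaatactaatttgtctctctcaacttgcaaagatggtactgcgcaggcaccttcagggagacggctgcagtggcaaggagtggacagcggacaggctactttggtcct
The core occurred 1 time before Mt1, 17 to 23 bases from the start site. It occurred 3 times before Mt2, and the match nearest the start was on the minus strand, 44 to 50 bases away. No core was found in the Mt3 window before the start. Of the other genes, Slc30a1 had 1 match, 37 to 43 bases away on the minus strand, and Slc30a10 had 3, of which 2 overlapped on opposite strands. The windows of Mtf1 and Slc39a12 held none. Among all 32851 windows of this length, 21.4% held at least 1 core, 5.17% at least 2 and 1.26% at least 3. The 50 bases after the listed start, which are not shown, held 2 more cores for Mt1 and 1 more each for Mt2, Mt3 and Slc30a1. A match gives letters only and does not show binding, and sequence beyond these bases, including any later start site, was not searched. The start sites of Mt1 and Mt2 were 6471 bases apart, and those of Mt2 and Mt3 were 20011 bases apart on the same strand. Another metallothionein gene, Mt4, starts 15403 bases from Mt3 and is not 1 of the 8 genes. Its window held 1 core on the minus strand, 85 to 91 bases before the start. The log2 ratio of Mt4 was 0.04 ± 0.10 (SD, n = 4) on its brighter probe, which was far dimmer than those of Mt1, Mt2 and Mt3. The other Mt4 probe was well above background in 0 mutants and 0 controls. The offset added in processing narrows ratios of dim probes, so the Mt4 ratio is not set against those of its neighbours.

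The 3 metallothioneins among the 8 genes measured lower in mutant cerebellum in 4 of 4 pairs, by 1.44 to 1.49-fold on average. Slc39a12, the main Slc30a10 probe and the main Slc30a1 probe measured higher in 4 of 4 pairs. None of the 8 genes passed limma's test over all 18025 genes at an adjusted p under 0.05, where 1.03% of genes passed. At an unadjusted p under 0.05 there were 6 of the 8, against 9.39% of all genes. Ratios below 0 in all 4 pairs were found for 3 of the 8 genes and for 7.32% of all genes, and ratios above 0 in all 4 pairs for 3 of the 8 and for 7.75% of all genes. Nothing is read from these shares, because the ratios took part in the choice, and for Slc30a10 the mutant signal also decided which probe stood for the gene. The median log2 ratio was 0.02 over the 8 genes and 0.00 over all genes, and the median SD between pairs over all genes was 0.16. Levels are given below as normalized intensities on a linear scale, and ratios are log2 mutant over control with the SD over 4 pairs. In whole tissue, fewer cells of a type and less RNA per cell cannot be told apart.

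**Figure D1:**
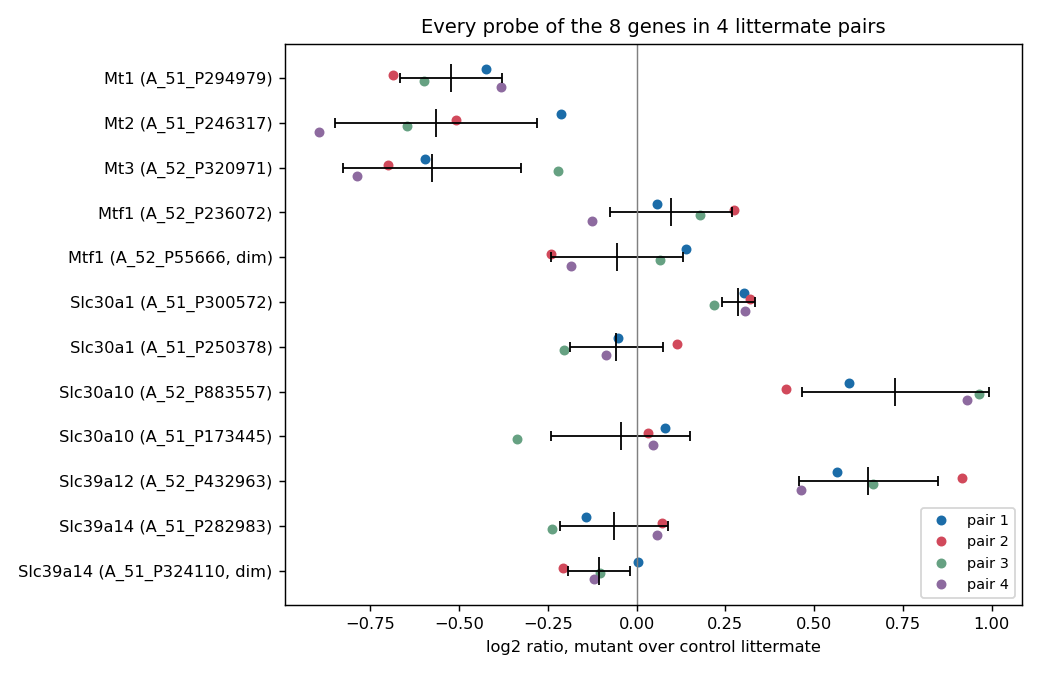
Log2 ratio of mutant over control littermate on the horizontal axis for each of the 12 probes, with coloured points for the 4 pairs and a black mark and bar for the mean and SD. Probes marked dim were not well above background in all 8 channels. The points of Mt1, Mt2 and Mt3 all lie below 0, and those of Slc39a12 and of 1 probe each of Slc30a1 and Slc30a10 all lie above 0.

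Mt1 had 23553, 16732, 17081 and 21731 units in mutants 1 to 4, against 31580, 26929, 25852 and 28319 units in controls 1 to 4. Every mutant was below every control. The means were 19774 ± 3397 units in mutants and 28170 ± 2488 units in controls (SD, n = 4 each), and the pair ratios of Mt1 were -0.42, -0.69, -0.60 and -0.38. The mean ratio of Mt1 was -0.52 ± 0.14 (adjusted p = 0.0651, limma over all genes). It was -0.51 where the mutant was in Cy5 and -0.53 where the mutant was in Cy3, so the dye order made little difference to it.

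The array printed the Mt1 probe in 10 spots, which gives a spotting error within each array that no other of the 8 genes has. Within an array the SD of the 10 spot ratios was 0.030 to 0.045. Pairs 1 and 4 had spots between -0.46 and -0.29, and pairs 2 and 3 had spots between -0.77 and -0.52.

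**Figure D2:**
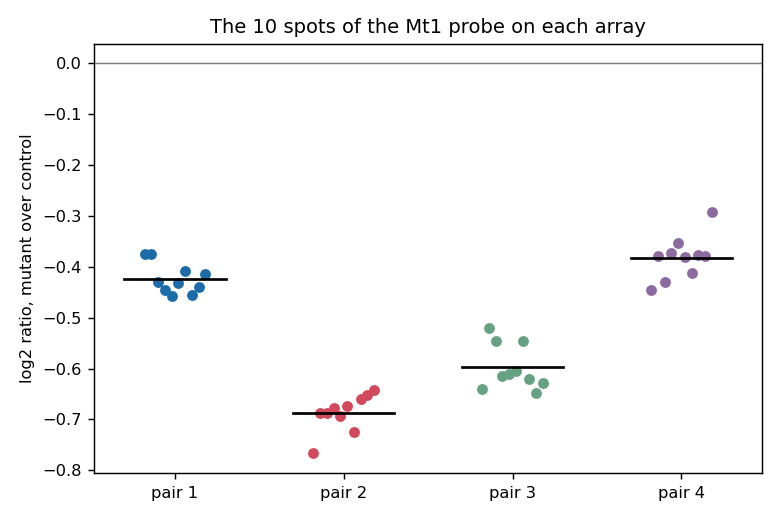
Log2 ratio of mutant over control for each of the 10 spots of the Mt1 probe on the arrays of pairs 1 to 4, with a black line at the mean. Every point lies below 0, and pairs 2 and 3 lie below pairs 1 and 4.

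Mt2 had 71575, 54215, 47702 and 46499 units in mutants 1 to 4, against 82998, 77092, 74707 and 86516 units in controls 1 to 4 (chr8:96697371-96697430, mm9). No mutant reached the lowest control. The mean ratio of Mt2 was -0.57 ± 0.28 (adjusted p = 0.121), and the pairs spread from -0.21 in pair 1 to -0.90 in pair 4. The controls lay close together and the mutants spread more, with mutant 1 the highest. The ratio of Mt2 was -0.43 with the mutant in Cy5 and -0.70 with the mutant in Cy3.

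Mt3, also called growth inhibitory factor, had 5183, 3344, 3651 and 3539 units in mutants 1 to 4, against 7838, 5436, 4253 and 6106 units in controls 1 to 4 (chr8:96677927-96677986, mm9). The groups overlapped, because mutant 1 was above control 3, although each mutant was below its own littermate. The pair ratios of Mt3 were -0.60, -0.70, -0.22 and -0.79, with a mean of -0.58 ± 0.25 (adjusted p = 0.0561). Like Mt2, it was nearer 0 with the mutant in Cy5 (-0.41) than in Cy3 (-0.74). The probes of Mt1, Mt2 and Mt3 shared no run of identical bases longer than 8. The probes were compared only with each other and not with whole transcripts. Binding of a probe to the transcript of another metallothionein was thus not tested.

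Mt4, a metallothionein of squamous epithelia and not 1 of the 8 genes, read 0.04 ± 0.10 (adjusted p = 0.919) at a far lower level. A second array probe within the Mt1 gene, listed under a transcript identifier in place of a symbol, lay 167 bases from the main probe. It read -0.11 ± 0.64, with pair values of 0.55, -0.99, -0.09 and 0.08. This probe was far dimmer than the main one, with 1767, 353, 897 and 1458 units in mutants 1 to 4. Controls 1 to 4 had 1208, 700, 956 and 1380 units on it. The second probe was looked at after the values were seen, and its spread between pairs was wider than the ratio of the main Mt1 probe.

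The zinc sensor gene Mtf1 had 407, 538, 580 and 441 units in mutants 1 to 4, against 391, 445, 513 and 480 units in controls 1 to 4 (chr4:124482221-124482280, mm9). The groups overlapped, and the mean ratio of 0.10 ± 0.17 was within the spread between pairs (adjusted p = 0.843). The other Mtf1 probe, 42591 bases away, was well above background in no mutant and 1 control, so it gave no usable level.

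The plasma membrane zinc exporter Slc30a1 had 1593, 1652, 2085 and 2135 units in mutants 1 to 4, against 1292, 1323, 1794 and 1728 units in controls 1 to 4 (chr1:193736760-193736819, mm9). Each mutant was above its own littermate but the groups overlapped, since pairs 3 and 4 were brighter in both genotypes. The pair ratios of Slc30a1 were 0.30, 0.32, 0.22 and 0.30, with a mean of 0.29 ± 0.05 (adjusted p = 0.144). The other Slc30a1 probe, 3167 bases away and above background on all arrays, read -0.06 ± 0.13 with pair values of -0.05, 0.11, -0.20 and -0.09. The 2 probes of Slc30a1 thus disagreed in sign, and the files give no exon or UTR for either.

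Slc30a10, an SLC30 family manganese exporter whose loss in humans causes manganese overload, had 360, 275, 562 and 463 units in mutants 1 to 4, against 237, 206, 288 and 243 units in controls 1 to 4 (chr1:187292107-187292166, mm9). The groups overlapped only through mutant 2, which was below control 3. The mean ratio of Slc30a10 was 0.73 ± 0.26, or 1.66-fold (adjusted p = 0.0694). The other Slc30a10 probe, 3455 bases away, had 326, 304, 204 and 250 units in mutants 1 to 4, against 309, 297, 258 and 242 units in controls 1 to 4, and read -0.05 ± 0.20. These probes disagreed as well. The first Slc30a10 probe was the brighter only through the mutants, with means of 415 units in mutants and 243 units in controls, while the other had 271 units in mutants and 277 units in controls. The probe that stood for the gene was thus chosen by the difference itself. Without pair 3, the other probe was the brighter of the 2 and stood for the gene, with a ratio of 0.06.

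Slc39a12, a zinc importer of brain enriched in astroglia, had 1241, 1446, 1561 and 1674 units in mutants 1 to 4, against 840, 765, 984 and 1214 units in controls 1 to 4 (chr2:14371402-14371461, mm9). Every mutant was above every control, the narrowest gap being mutant 1 against control 4. The pair ratios of Slc39a12 were 0.56, 0.92, 0.67 and 0.46, with a mean of 0.65 ± 0.20, or 1.57-fold (adjusted p = 0.0541). It has 1 probe on the array. Levels without overlap between genotypes were found for Mt1 and Mt2 on the lower side, where 1.81% of all genes had all mutants below all controls, and for Slc39a12 on the higher side, where 2.16% had all mutants above all controls.

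Slc39a14, an importer of zinc, iron and manganese, had 455, 466, 350 and 465 units in mutants 1 to 4, against 502, 443, 413 and 447 units in controls 1 to 4 (chr14:70703405-70703464, mm9). Its ratio of -0.06 ± 0.15 was within the spread between pairs (adjusted p = 0.849). The second Slc39a14 probe was well above background in 1 mutant and 3 controls and read -0.11 ± 0.09.

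**Figure D3:**
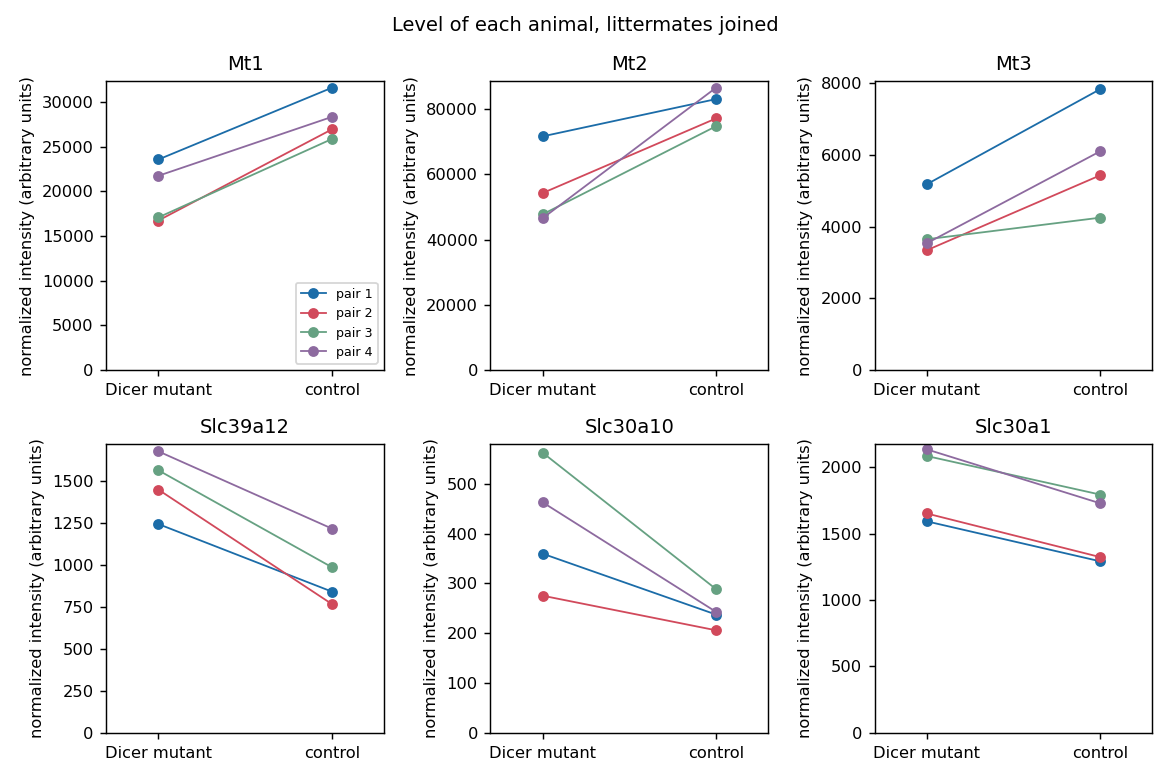
Normalized intensity of each animal for 6 genes, with Dicer mutants on the left, controls on the right and littermates joined by a line (each vertical axis starts at 0). Mutants lie below their littermates for Mt1, Mt2 and Mt3, and above them for Slc39a12, Slc30a10 and Slc30a1, and the groups do not overlap for Mt1, Mt2 and Slc39a12.

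**Figure D4:**
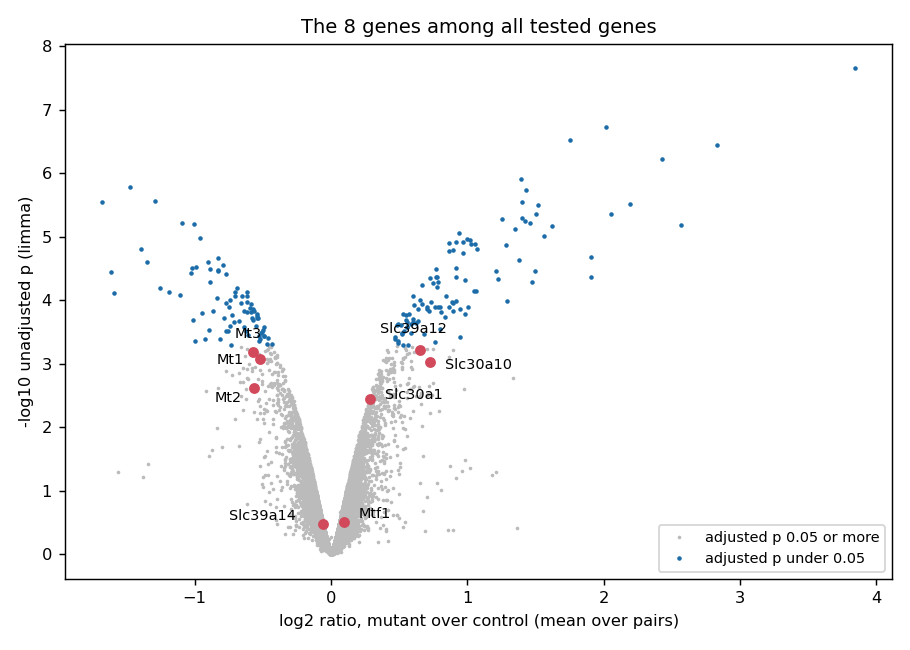
Mean log2 ratio of mutant over control on the horizontal axis and -log10 of limma's unadjusted p on the vertical axis for all 18025 tested genes, with the 8 genes in red and genes past the adjusted threshold in blue. Mt3, Mt1, Slc39a12 and Slc30a10 lie just under the blue genes, and Mtf1 and Slc39a14 lie at the base.

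The whole families were then read off the same fit. Of 24 SLC30 and SLC39 genes listed, 20 were tested, none was called and 3 had an unadjusted p under 0.05, all 3 being among the 8 genes described. The 16 tested transporters that were not among the 8 had ratios from -0.16 to 0.17 with a median of 0.05, and none had an unadjusted p under 0.05. Among exporters, Slc30a6 was the highest of these at 0.14 ± 0.17 and Slc30a7 the lowest at -0.07 ± 0.11; both serve the early secretory pathway. Among importers, Slc39a1 was the highest at 0.17 ± 0.29 and Slc39a3 the lowest at -0.16 ± 0.10, lower in 4 of 4 pairs (adjusted p = 0.563). Slc30a3, which loads zinc into synaptic vesicles of forebrain neurons, was not tested because its probe was above background in 2 mutants and 3 controls. Slc30a2, Slc30a8 and Slc39a5 were also too dim to test.

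**Figure D5:**
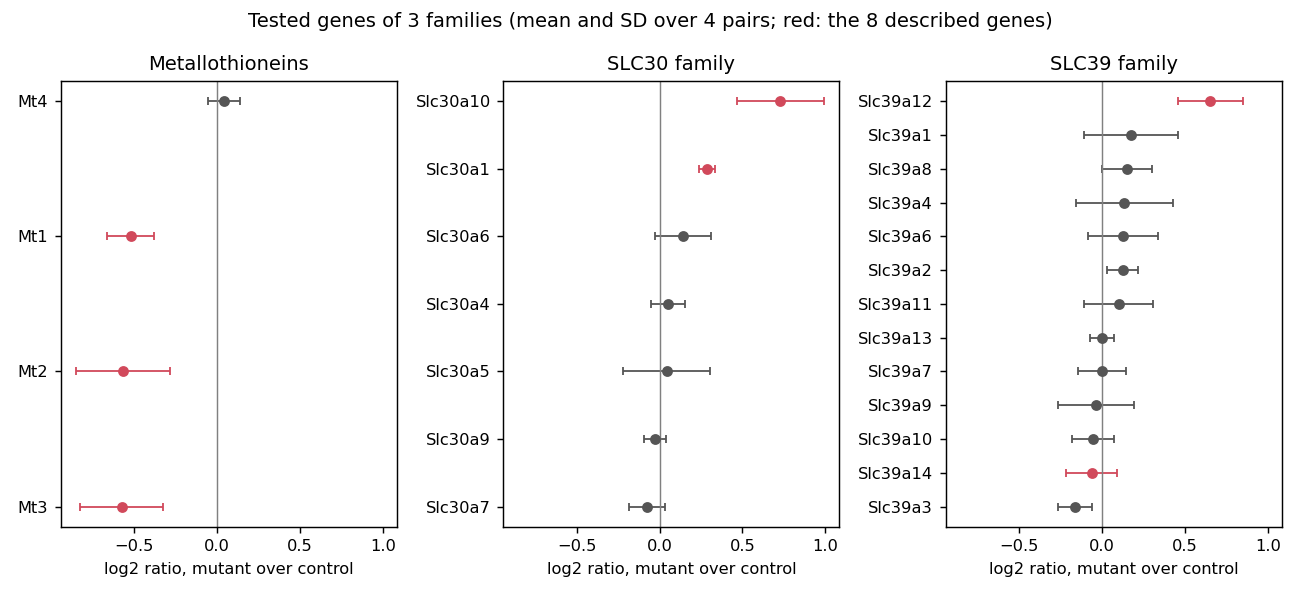
Mean log2 ratio of mutant over control with its SD over 4 pairs for every tested metallothionein, SLC30 and SLC39 gene, with the genes described in full in red. The grey transporters lie between -0.16 and 0.17, and Slc30a10 and Slc39a12 lie furthest to the right in their panels.

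Copper handling genes were listed because metallothioneins bind copper, and of 12 listed, 11 were tested and none was called, with none at an unadjusted p under 0.05. Their median ratio was 0.00, from Commd1, a regulator of copper export, at -0.18 ± 0.46 to Atp7a, a copper pump, at 0.14 ± 0.11. The ratio of Commd1 was -0.86 in pair 1 and between 0.02 and 0.08 in the other pairs, so its mean is below 0 through pair 1 alone. Glucocorticoids also induce Mt1 and Mt2, and of 17 glucocorticoid-induced genes listed, 16 were tested, none was called and 4 had an unadjusted p under 0.05, against 9.39% of all genes. Their median was -0.07, from Dusp1, a phosphatase of MAP kinases, at -0.54 ± 0.49 (adjusted p = 0.210) to Klf15, a transcription factor, at 0.34 ± 0.26 (adjusted p = 0.414). Dusp1 was 0.16 in pair 1 and below 0 in the other pairs. Of the 16, 12 had a mean ratio below 0. In all 4 pairs, 2 were lower and 1 was higher, against 7.32% and 7.75% of all genes. Whether glucocorticoid action differed was not tested.

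The likeness of each gene to Mt1 was taken as Pearson's r of the log2 levels over the 8 channels, for 17996 genes with a value in all of them. The channels hold both genotypes and share arrays, so this is a description. The 5 closest genes were Ntsr2 (0.96), a neurotensin receptor of astroglia, Cdc42ep4 (0.96), Nadk2 (0.95), Tmem229a (0.95) and AK038464 (0.94). Ntsr2 was also called lower, at -1.01 ± 0.26 (adjusted p = 0.0270). Since r includes the difference between genotypes, which took part in the choice of the 8 genes, their ranks are not separate support. Mt3 had rank 51 (r = 0.88), Mt2 rank 77 (r = 0.86) and Slc39a14 rank 2173 (r = 0.50). Slc30a1 (rank 16589, r = -0.61) and Slc30a10 (rank 16887, r = -0.65) lay near the other end. So did Mtf1 (rank 17231, r = -0.71) and Slc39a12 (rank 17525, r = -0.77).

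Markers of astroglia, the cells in which a Gfap promoter is active, differed in the same animals. Of 12 astroglial markers, all above background, 4 were lower (Ndrg2, Slc1a2, S100b and Aqp4) and 2 were higher (Gfap and Aldh1l1) at an adjusted p under 0.05, which 1.03% of all genes passed. Their summed level was 248291 to 304111 units in mutants, against 335318 to 375554 units in controls. Their ratios ran both ways, with Gja1 at -0.84, Gfap at 1.47 and a median of -0.46. Of 7 Bergmann glia markers tested, 2 were lower and 1 was higher at an adjusted p under 0.05. In all 4 pairs, 3 were lower and 2 were higher. Their sums were 178900 to 337814 units in mutants and 221542 to 364615 units in controls. Meninges markers were above 0 in all 4 pairs for 4 of 5 genes with none called, with sums of 17714 to 22298 units in mutants and 13742 to 19086 units in controls. Purkinje cell and granule neuron markers, which define the labelled cerebellum, were all detected, with medians of 0.03 and -0.01 and none called. None of the tested oligodendrocyte, interneuron, microglia, vascular, choroid plexus or blood markers was called. The 8 oligodendrocyte markers all had a ratio below 0 (median -0.28), and 2 of them were lower in all 4 pairs. limma's unadjusted p was under 0.05 for 3 of the 8, against 9.39% of all genes. Their sums overlapped, at 200630 to 254837 units in mutants and 242850 to 295796 units in controls. The part of any cell type in the ratios of the 8 genes was not tested.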

How the data were processed

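Agilent Feature Extraction 10.5.1.1 read each array, and the deposited files hold linear spot and background intensities of both dyes, not normalized beyond the scan, per the file headers. The software also gave processed signals and a log10 ratio for each spot. Its processed signals and the deposited value table of log10 ratios served as alternatives. The software's quality flags were used as deposited, and probe positions are on mm9, per the file headers.

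Mean intensities were corrected with normexp (offset 50, outlier-flagged spots left out of its fit) and normalized by loess within arrays in limma 3.58.1 (R 4.3.3, data.table version 1.17.8, jsonlite 2.0.0). Levels are channel values after a further Aquantile step and include the offset, which narrows ratios of dim probes. Spots of a probe were averaged and the brightest probe stood for a gene. A probe was tested if well above background in all 4 mutant or all 4 control channels. limma fitted genotype and dye terms, with Benjamini-Hochberg adjustment over 18025 genes and calls at an adjusted p under 0.05. Each array holds both littermates, so each ratio is paired. All 4 arrays shared a slide and scan.

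The 8 genes, the lists and the tests were chosen with earlier results of these data known. Named were the 8 genes with every probe, Dicer1, Slc30a3, Mt4, called genes and the highest and lowest other tested gene of each pathway list, and the 5 genes most like Mt1. On simulated data for this comparison with 18025 genes, 20.5% of genes changed by 0.5 on the log2 scale were called, 75.4% at 1 and 98.5% at 2. Alternatives were other background, normalization, filter, probe and model settings and leaving out each pair.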

Additional observations from a re-analysis of the deposited data

Results flagged for a closer look

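Over the 4 pairs or the 4 animals of a genotype, 24 sets of values of the 8 genes were screened for a sample far from the others, and 2 stood out by Dixon's criterion for 4 values, where chance gives about 1 in 20. The log2 ratio of Slc30a1 in pair 3 was 0.217, with the other pairs between 0.303 and 0.320. The log2 level of Slc39a14 in mutant 3 was 8.45 (350 units), with the other mutants between 8.83 and 8.86. Both values come from the array of pair 3, and no cause was tested.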

How the results depend on the processing

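There were 16 alternatives. The scanner software's processed signals and the value table each replaced background correction and normalization together and held the same ratios, so they are not separate checks. The trend and the robust variances were also set together. Of the 128 gene results, 107 kept direction and side of the threshold, 20 passed it and 1 turned. Mt1 stayed between -0.60 and -0.45, Mt2 between -0.67 and -0.46, Mt3 between -0.67 and -0.48 and Slc39a12 between 0.54 and 0.77. Slc30a10 ran from 0.06 to 0.91, the lower end without pair 3, where its other probe was the brighter. Slc30a1 was 0.11 as the mean over its probes. Mtf1 turned to -0.00391 without pair 2, and with a pair left out ran from that to 0.20. In place of 0 of the 8 genes, 2 were called with median spot signals (Slc30a10 and Slc39a12), 2 with median centring, 2 with no filter on dim probes and 2 as means over probes (Mt3 and Slc39a12 in these 3), 2 with a trend and robust variances (Mt1 and Mt3) and 4 with no dye term (Mt1, Mt3, Slc30a10 and Slc39a12). With a pair left out, 0 to 3 were called, the 3 being Mt2, Slc30a10 and Slc39a12 without pair 2, and Mt1, Slc30a10 and Slc39a12 without pair 4. In place of 0 genes of the zinc transporter families, 2 were called with median spot signals, 2 with no dye term, 1 each with median centring, no filter and means over probes, and 0 to 2 with a pair left out. Over all genes, 186 calls became 82 with the outlier flags applied after normexp and 57 to 336 with a pair left out. Each array holds both littermates, so every fit is already paired and no replicate block was added. The 4 arrays limit all calls, and the causes of these shifts were not tested.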
